A study of Mus musculus with 6 samples.

Results

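Bile acids are made from cholesterol in hepatocytes, joined to taurine or glycine, and secreted across the canalicular membrane into bile. Most return in portal blood and are taken up again across the sinusoidal membrane, while exporters on the basolateral side can pass them back to blood. NTPDase8, the enzyme encoded by Entpd8, hydrolyses extracellular nucleotides and sits at the bile canaliculus of the liver, the same membrane that carries the bile exporters.

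The genes described here are 33 mouse genes of bile acid synthesis, conjugation and transport, taken by symbol from a deposited table of 45706 genes, and all 33 were found in it. They were compared between 3 liver samples labelled ENTPD-8 knockout (KO 1 to KO 3) and 3 labelled wild type (WT 1 to WT 3), in a series on the part of NTPDase8 in liver ischemia. All 6 libraries were made from poly(A)-selected liver RNA of mice bred at Charles River. The labels used here do not give the knockout allele, the cells it covers, sex, age, feeding, sampling time, or whether a liver had undergone ischemia. Nor do they tie each sample to an animal of its own; the p-values reflect how much these 6 libraries varied, and that variation may be technical.

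Libraries held 32768774 to 46473531 counts, and Entpd8 itself was at 0.733 ± 0.356 CPM (counts scaled by library size) in KO livers and 39.3 ± 17.0 CPM in WT livers (SD, n = 3 each). Of 14069 genes tested, 20.4% passed, with an adjusted p under 0.05 in edgeR's quasi-likelihood test. Higher in KO livers were 9.80% and lower 10.6%. Mitochondrial genes took 10.1 to 11.7% of counts in KO livers and 6.52 to 8.34% in WT livers. Without mitochondrial and hemoglobin genes the fit called the same 5 bile acid genes higher and 2 lower that are described here. WT 2 stood apart from the other libraries on the second principal component. Hepatocyte markers marked both groups as liver: 0 of 10 passed, and their summed level was 64497 to 84715 CPM in KO livers and 60026 to 78560 CPM in WT livers. Among other markers, 4 of 8 Kupffer cell, 1 of 8 endothelial, 1 of 8 stellate and 1 of 10 periportal markers fell, 3 of 7 cholangiocyte, 3 of 5 plasma and B cell and 3 of 10 pericentral markers rose, and 0 of 7 neutrophil markers passed. Of 8 markers of gut and kidney 1 could be tested, Fabp2, and it rose, while 4 were at 0 counts in all 6 libraries.

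Across the pathway, 5 genes rose in KO livers (Akr1c6, Amacr, Slc10a1, Slco2b1 and Abcb1a) and 2 fell (Atp8b1 and Cyp39a1). The 32 genes that passed the filter on low counts were tested, and the exception, Slc51a, had 0 counts in all 6 libraries. The 7 genes that passed are 21.9% of those tested, close to the 20.4% among all genes, so the number of calls does not set the pathway apart. Most tested genes nonetheless leaned one way. The log2 fold change was above 0 for 25 of 32 (78.1%), against 47.9% of all genes tested, and its median was 0.44, against -0.02 over all genes. That lean was also seen among strongly expressed genes, the 1040 genes at or above 125 CPM, which is the median level of the bile acid genes. Of these, 69.7% were above 0, 19.9% rose and 5.19% fell, and the median was 0.21. They include the bile acid genes at or above that level, while the bile acid genes below it are set against more abundant genes. In CPM every KO library lay above every WT library in 18 of the 32, and in 2 every KO library lay below. Such separation was seen in 40.7% of all genes, 18.7% upward and 22.0% downward, and in 35.1% and 10.3% of the strongly expressed genes. It depended on the scaling. In TPM, a level scaled by gene length and library size, Akr1c6, Slc10a1, Abcb1a, Cyp27a1, Slc51b and Klb still separated upward, and Atp8b1 and Cyp39a1 downward. The others overlapped in TPM, among them Amacr (57.1 in KO 3, 61.9 in WT 3) and Slco2b1 (39.0 in KO 2, 39.1 in WT 3). In bulk liver, fewer cells of a type and less RNA per cell cannot be told apart.

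Only Atp8b1 passed in each of the 17 other fits that gave it a value. Without KO 1 the number of genes that rose was 0, and without WT 3 it was 9. It was 14 with DESeq2, 3 with library totals alone and 2 with the replicate number as a block, and the number that fell was 1 under the block and without each library other than WT 2.

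**Figure D1:**
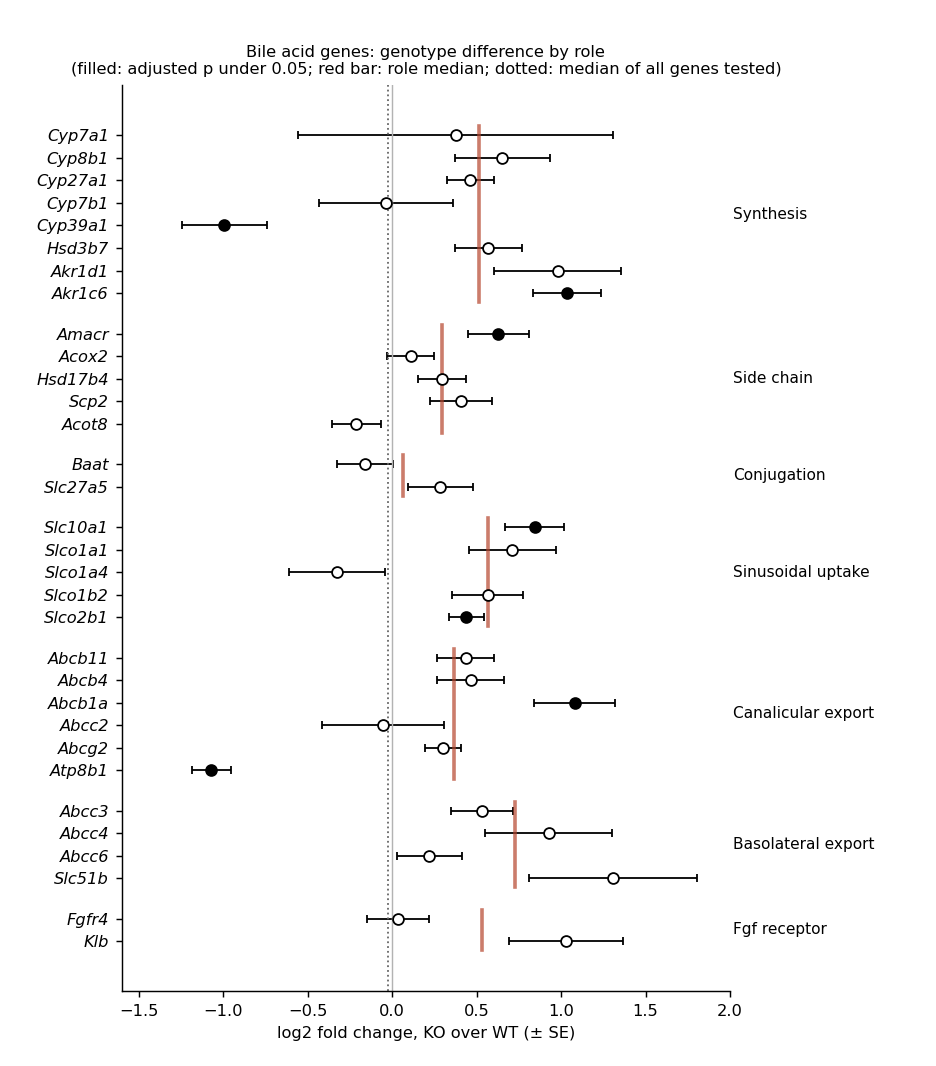
Log2 fold change of each tested bile acid gene, KO over WT, with its standard error (x axis), grouped by role (y axis). Filled points passed an adjusted p of 0.05, red bars mark the median of a role, and the dotted line is the median of all genes tested (-0.02). Atp8b1 and Cyp39a1 are the filled points below 0, and 25 of the 32 points lie above 0.

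The promoter windows of 3 transporters hold matches to motifs of factors known to act on this pathway. The nuclear receptor FXR, encoded by Nr1h4, binds bile acids and pairs with Rxra on an inverted repeat of the hexamer AGGTCA spaced by a single base (IR1). RefSeq windows of 250 bases upstream of annotated starts (GRCm38.p6) were at hand for 23 of the 33 genes, 30 windows in all. The motif search was chosen after the results were known. On both strands, IR1 (AGGTCA, any base, then its reverse complement TGACCT) with at most 1 mismatch was found in 2 of the 30 windows, those of Abcb11 and Slco1b2, against 0.0791% of 32851 windows of all genes. The C/EBP motif TTGCNNAA was found without mismatch in 4 of the 30 windows, Slc10a1 among them, against 9.56% of all windows. Slc10a1, Slco1b2 and Abcb11 are printed because they are the main uptake carriers and the bile salt pump. Where a gene had several windows, the one with the lowest coordinate is printed. The Slc10a1 window lies inside the annotated span of the gene, 80953183 to 80968705. Each is 5′ to 3′ on the gene's strand, and capitals mark the IR1 match in Slco1b2 and Abcb11 and the C/EBP match in Slc10a1.
Slc10a1, minus strand, chr12:80968080-80968329: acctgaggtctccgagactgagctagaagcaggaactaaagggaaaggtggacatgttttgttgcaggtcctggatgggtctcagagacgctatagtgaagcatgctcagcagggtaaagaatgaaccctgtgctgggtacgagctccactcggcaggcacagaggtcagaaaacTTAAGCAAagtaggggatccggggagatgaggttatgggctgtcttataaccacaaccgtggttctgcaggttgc
Slco1b2, plus strand, chr6:141629268-141629517: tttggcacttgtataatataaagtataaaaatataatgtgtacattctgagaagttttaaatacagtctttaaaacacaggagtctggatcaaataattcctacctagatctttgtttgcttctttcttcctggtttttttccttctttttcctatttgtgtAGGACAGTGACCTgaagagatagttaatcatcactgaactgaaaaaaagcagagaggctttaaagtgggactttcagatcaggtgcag
Abcb11, minus strand, chr2:69342617-69342866: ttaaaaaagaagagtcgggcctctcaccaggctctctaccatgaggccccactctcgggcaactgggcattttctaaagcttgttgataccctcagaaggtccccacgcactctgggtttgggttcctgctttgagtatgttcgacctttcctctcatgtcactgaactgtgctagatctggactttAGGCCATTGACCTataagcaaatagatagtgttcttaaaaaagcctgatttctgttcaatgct
A match describes these letters only. The direct repeat DR1 (AGGTCA, any base, AGGTCA again), bound by Hnf4a and by Rxra partners, was found with at most 1 mismatch in 1 of the 30 windows, that of Slco1a1, against 0.484% of all windows. CAAGGTCA, the site of Nr5a2, was found in 1 window, of Abcg2, against 1.33%. TGANTCA, the AP-1 site bound by Jun, was found in 4 windows of 3 genes (Acot8, Acox2 and Slc51b), against 6.75%.

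Among 8 synthesis enzymes, 1 rose (Akr1c6) and 1 fell (Cyp39a1), against 9.80% and 10.6% of all genes tested. The median log2 fold change of the 8 was 0.52. Akr1c6, an aldo-keto reductase, was at 864, 1111 and 687 CPM in KO 1, KO 2 and KO 3, against 377, 476 and 448 CPM in WT 1, WT 2 and WT 3. The groups did not overlap, and the log2 fold change was 1.03 ± 0.20 (SE, adjusted p = 0.0134). Its neighbour in sequence and function Akr1c14, not among the 33, also rose (1.09 ± 0.19, adjusted p = 0.0102), and estimated counts can move between such paralogs. Cyp39a1, which acts on the oxysterol that carries brain cholesterol to the liver, stood at 9.36, 11 and 9.48 CPM in KO livers and 27.8, 13.3 and 18.3 CPM in WT livers. Every KO library was below every WT library, with WT 1 the highest (-0.99 ± 0.25, adjusted p = 0.0306). Without any 1 library other than WT 2 the call on Cyp39a1 ended (adjusted p 0.0502 to 0.113), as it did under the replicate block (adjusted p = 0.0742), and without WT 1 its log2 fold change was -0.67. The call on Akr1c6 ended without KO 1 (adjusted p = 0.0578).

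Cyp7a1, Cyp8b1 and Cyp7b1, the enzymes at the branch points of synthesis, varied widely among WT livers, and none passed. Cyp7a1, the rate-limiting enzyme of the classical route, was at 32.3, 22.7 and 47.4 CPM in KO livers, against 10.2, 3.41 and 65.3 CPM in WT livers. Its WT libraries spanned 19.2-fold and its KO libraries 2.09-fold, and the KO values all lay inside the WT range. The difference was 0.38 on the log2 scale with a 95% interval of -1.83 to 2.58 (adjusted p = 0.808), so it could not be settled with these samples. Without WT 3 it was 2.32 (adjusted p = 0.0380), and without WT 2 it was -0.15. Cyp8b1, whose hydroxylation directs synthesis to cholic acid, was at 155, 189 and 139 CPM in KO livers and 106, 61.9 and 140 CPM in WT livers (0.65 ± 0.28, adjusted p = 0.137). WT 2 was again the lowest, and KO 3 and WT 3 were nearly level. Cyp7b1, the oxysterol hydroxylase of the alternative route, showed 464, 610 and 255 CPM in KO livers and 252, 515 and 596 CPM in WT livers. Its groups covered nearly the same range (-0.04, 95% interval -0.96 to 0.89, adjusted p = 0.961).

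Of 3 further enzymes, none passed. Cyp27a1, the mitochondrial enzyme that opens the alternative route and oxidizes the side chain, was at 435, 471 and 411 CPM in KO livers and 312, 357 and 286 CPM in WT livers. The groups did not overlap, and the value lay just outside the threshold (0.46 ± 0.14, adjusted p = 0.0511); it passed in 6 of 17 other fits. Hsd3b7, which oxidizes the ring hydroxyl early in both routes, was at 368, 456 and 333 CPM in KO livers, against 223, 227 and 330 CPM in WT livers (0.57 ± 0.20, adjusted p = 0.0785). Its exons share 1717 of 2769 bases with a gene on the same strand, Gm49388, which was not analysed here. Akr1d1, the reductase that bends the ring system into the bile acid shape, was at 135, 116 and 148 CPM in KO livers and 114, 48.2 and 40.1 CPM in WT livers. WT 1 came close to the KO libraries, and the difference did not pass (0.98 ± 0.38, adjusted p = 0.109). Cyp7a1 is known to be strongest near the central vein, and 3 of 10 pericentral markers rose. The 10 summed to 6351 to 6827 CPM in KO livers and 3574 to 4632 CPM in WT livers. Much of that was Cyp2e1, at a mean of 3704 CPM in KO livers and 1898 CPM in WT livers. Axin2 (-0.61), Lgr5 (-0.83), Slc1a2 (-0.30) and Slc1a4 (-0.26) leaned downward and Glul, Cyp1a2 and Oat upward, none passing. The part of zonation in these values was not tested.

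**Figure D2:**
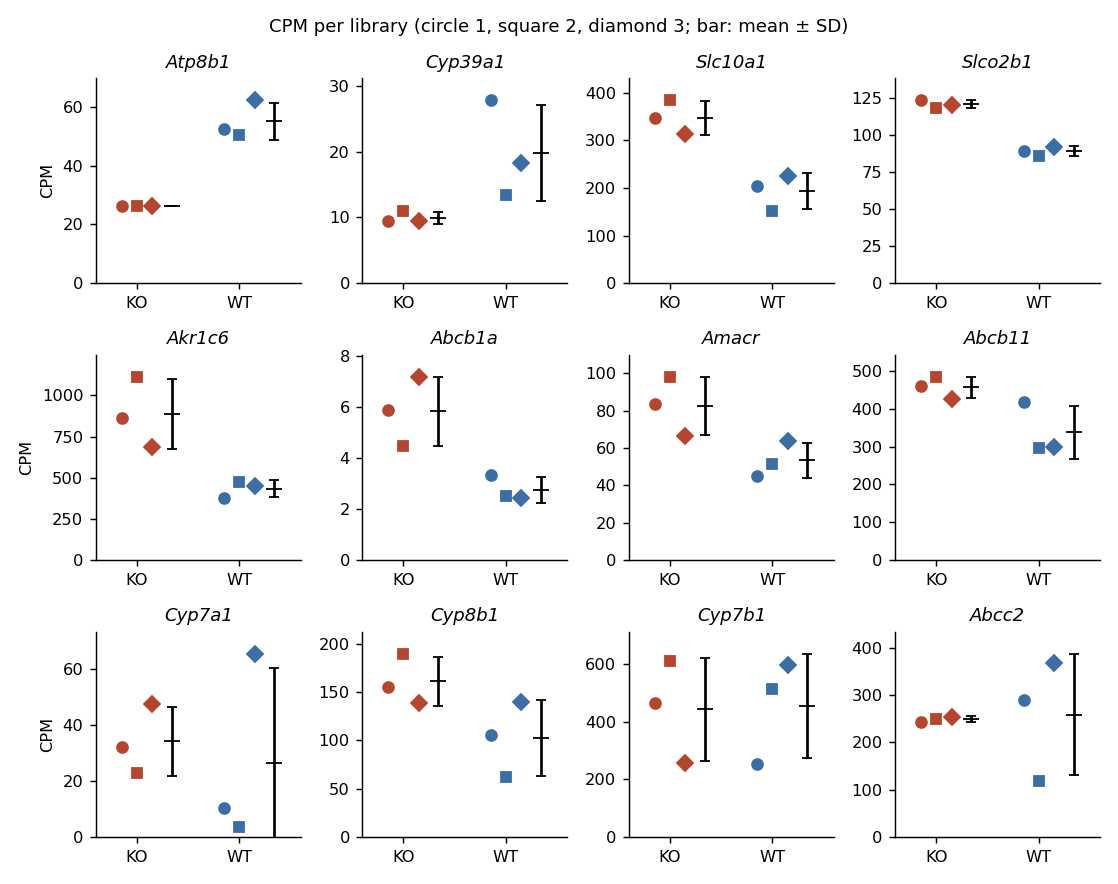
CPM of 12 bile acid genes in each library (y axes, linear from 0), KO at the left of WT, with the mean and SD beside the points. Atp8b1 and Slc10a1 separate the groups, while the WT points of Cyp7a1 run from 3.41 to 65.3 CPM and those of Abcc2 from 119 to 369 CPM; the lower end of the WT bar of Cyp7a1 falls below 0 and is not drawn.

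Of the 5 genes of peroxisomal side-chain shortening, 1 rose, Amacr, against 9.80% of all genes tested. Amacr encodes the racemase that turns the side chain into the form the oxidase accepts, and it was at 83.3, 97.8 and 66.5 CPM in KO livers, against 44.9, 51.6 and 63.6 CPM in WT livers. KO 3 was only just above WT 3, and the call (0.63 ± 0.18, adjusted p = 0.0431) ended when KO 1, KO 2, WT 1 or WT 2 was left out (adjusted p from 0.0824 to 0.130), with upper-quartile scaling, library totals alone or the replicate block (adjusted p 0.0553 to 0.0973). Scp2, whose long product is the thiolase that releases the finished side chain, was the most abundant of all 33 per length, at 2350 TPM (a level scaled by gene length and library size) in KO livers and 2002 TPM in WT livers. In CPM it was at 3879, 4220 and 3639 in KO livers and 2297, 3327 and 3226 in WT livers, without overlap (0.41 ± 0.19, adjusted p = 0.155). Hsd17b4, the multifunctional enzyme of this chain, was at 295, 284 and 349 CPM in KO livers, against 245, 232 and 279 CPM in WT livers (0.30 ± 0.14, adjusted p = 0.175). Both leaned upward without passing. The oxidase Acox2 (0.11 ± 0.14) and the thioesterase Acot8 (-0.21 ± 0.15) overlapped between the groups. Exons of Acot8 share 246 bases with Snx21 on the other strand, and whether reads were counted by strand is not given in the sources used here.

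Neither conjugation gene passed. Baat, which joins taurine or glycine to the bile acid, averaged 270 ± 27.9 CPM in KO livers and 302 ± 53.7 CPM in WT livers (SD, n = 3 each), a log2 fold change of -0.16 with a 95% interval of -0.54 to 0.22. Slc27a5, the ligase that makes the coenzyme A ester Baat needs, averaged 727 ± 63.3 CPM in KO livers and 597 ± 148 CPM in WT livers (0.29, 95% interval -0.16 to 0.73). Neither interval reaches 1 on the log2 scale in either direction. Summed per length, conjugation genes were at 886 to 936 TPM in KO livers and 888 to 1048 TPM in WT livers.

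In sinusoidal uptake 2 of 5 tested genes rose, against 9.80% of all genes and 19.9% of the strongly expressed ones, with a median log2 fold change of 0.56. Slc10a1 encodes NTCP, the sodium-coupled carrier that takes up most conjugated bile acids, and its counts came to 346, 384 and 313 CPM in KO livers, against 205, 153 and 224 CPM in WT livers. All 3 KO libraries lay above all 3 WT libraries (0.84 ± 0.17, adjusted p = 0.0157), and the call ended only without KO 1 among the 17 other fits (adjusted p = 0.0652). Those 17 leave out the test against a fold of 1.5, which Slc10a1 did not pass. Slco2b1, an organic anion transporter of broad substrate range, was at 123, 118 and 120 CPM in KO livers and 89.1, 85.6 and 92 CPM in WT livers. The step was small but the libraries of each group lay close together (0.44 ± 0.10, adjusted p = 0.0242). Its call ended without any 1 library other than WT 2 and WT 3, with library totals alone and under the replicate block (adjusted p 0.0572 to 0.127).

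The carriers of unconjugated bile acids and other organic anions differed among themselves. Slco1b2 was at 648, 663 and 642 CPM in KO livers, against 350, 378 and 593 CPM in WT livers, with WT 3 close to the KO level (0.56 ± 0.21, adjusted p = 0.0918). Slco1a1 was at 354, 413 and 228 CPM in KO livers and 152, 250 and 206 CPM in WT livers, where KO 3 fell between the WT values (0.71 ± 0.26, adjusted p = 0.0873). Slco1a4 alone of the 5 leaned downward, at 30.2, 32.5 and 22.3 CPM in KO livers and 51.2, 23.6 and 31.7 CPM in WT livers (-0.33 ± 0.28, adjusted p = 0.448, and 0.03 without WT 1). Slco1a1 and Slco1a4 are close paralogs with estimated counts that are not whole, so the split of reads between such genes is uncertain. Summed per length, uptake genes were at 795, 811 and 760 TPM in KO livers and 511, 463 and 714 TPM in WT livers. On the TPM scale no other role separated the groups, but with the TMM-scaled totals used for the tests, a check added after seeing the data, the summed CPM of synthesis, side-chain and basolateral genes separated them as well. There synthesis genes summed to 2031 to 2988 CPM in KO livers and 1422 to 1923 CPM in WT livers, and side-chain genes to 4206 to 4760 CPM in KO livers and 2724 to 3739 CPM in WT livers. Most of the side-chain sum was Scp2, which did not pass. Scp2 alone was at 3639 to 4220 CPM in KO livers and 2297 to 3327 CPM in WT livers.

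**Figure D3:**
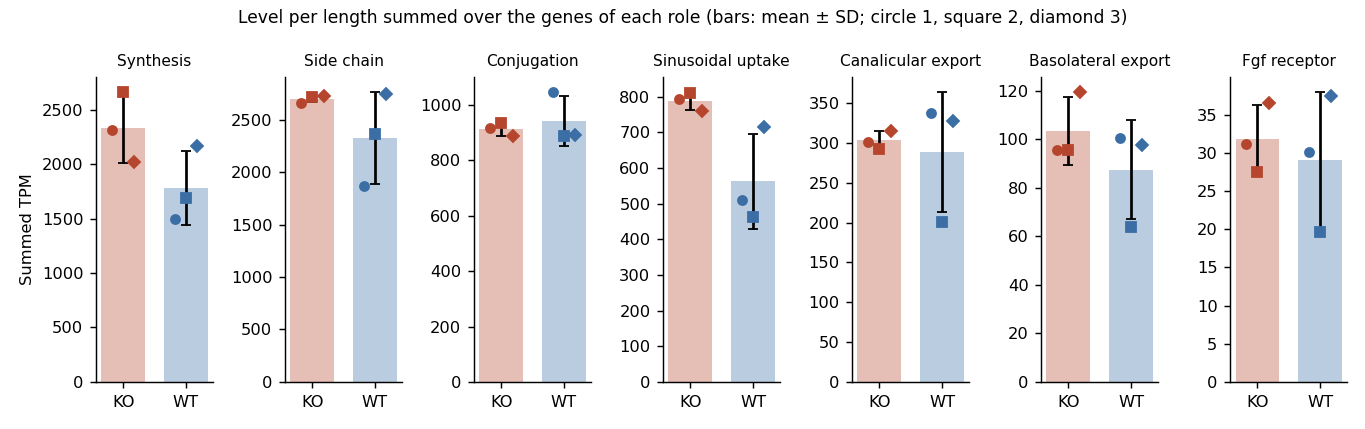
TPM summed over the genes of each role (y axes, linear from 0, one scale per role), KO at the left of WT. Bars are means with SD and points are libraries; uptake was at 760 to 811 TPM in KO livers and 463 to 714 TPM in WT livers, and the other 6 roles overlapped on this scale, of which synthesis, side chain and basolateral export did not overlap in summed TMM-scaled CPM.

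Canalicular export held the clearest fall of the pathway. Atp8b1 encodes a flippase that keeps the lipids of the canalicular membrane in their asymmetric order, and its loss in humans causes a familial cholestasis. It was at 26.3, 26.3 and 26.2 CPM in KO livers, from 1035, 1054 and 1248 counts, against 52.5, 50.6 and 62.3 CPM in WT livers, from 1907, 1974 and 2243 counts. The level in KO livers was 2.10-fold lower. The 3 KO libraries were nearly identical in CPM, but less so in TPM (8.17, 7.69 and 8.74), so that closeness depended on the scaling. The fall was 1.07 ± 0.12 on the log2 scale (adjusted p = 0.00239), with a 95% interval of -1.34 to -0.80, and it passed in all 17 other fits, from -1.15 to -0.97 and with adjusted p up to 0.0197. A test against a fold of 1.5 also passed it, and it was the only one of the 33 that did. The gene, ENSMUSG00000039529, lies on the minus strand of chromosome 18 from 64528967 to 64661267 in GRCm38. Tmem30a, which encodes the subunit flippases of this kind need to reach the membrane, was at 171 ± 4.66 CPM in KO livers and 174 ± 19.5 CPM in WT livers (SD, n = 3 each; log2 fold change -0.02, 95% interval -0.31 to 0.27).

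The bile salt and phospholipid pumps leaned the other way. Abcb11, the bile salt export pump, was at 460, 483 and 427 CPM in KO livers, against 417, 295 and 300 CPM in WT livers. Its KO libraries lay above the WT libraries, WT 1 by the least, and it did not pass (0.44 ± 0.17, adjusted p = 0.103). Abcb4, which moves phosphatidylcholine into bile, was at 133, 128 and 148 CPM in KO livers and 120, 69.2 and 107 CPM in WT livers (0.46 ± 0.20, adjusted p = 0.134). Per length, the ratio of Atp8b1 to Abcb11 was 0.0439, 0.0416 and 0.0471 in KO livers and 0.0965, 0.131 and 0.159 in WT livers, and that of Atp8b1 to Abcb4 was 0.276, 0.288 and 0.248 in KO livers and 0.610, 1.02 and 0.815 in WT livers. Neither ratio overlapped between the groups. This follows from the values above, as in CPM Atp8b1 was lower and both pumps were higher in every KO library than in every WT library. The ratios are not a further result.

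Other canalicular transporters were mixed. Abcb1a, a P-glycoprotein of low level in liver, was at 5.85, 4.46 and 7.15 CPM in KO livers and 3.33, 2.51 and 2.42 CPM in WT livers, from 179 to 340 counts in KO livers and 87 to 121 counts in WT livers. It rose by 1.08 ± 0.24 (adjusted p = 0.0198), and the call ended without KO 1, KO 3 or WT 3 and under the replicate block (adjusted p 0.0502 to 0.0788). Its estimated counts are not whole, and reads could be split with its paralog Abcb1b, which did not pass (0.12 ± 0.26). Abcg2 was at 60.8, 60.9 and 58.8 CPM in KO livers, against 50.6, 44.0 and 51.9 CPM in WT livers, a small separation that did not pass (0.30 ± 0.11, adjusted p = 0.0857). Abcc2, the exporter of bilirubin glucuronides and glutathione conjugates, was at 243, 250 and 255 CPM in KO livers and 290, 119 and 369 CPM in WT livers. The KO libraries were close to each other and the WT libraries spanned 3.11-fold (-0.06, 95% interval -0.90 to 0.79, adjusted p = 0.930). Its sign turned in 5 of 17 other fits.

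None of the basolateral exporters passed, and all 4 that could be tested leaned upward, with a median log2 fold change of 0.73. Abcc3, which returns conjugates to blood, was at 162, 161 and 194 CPM in KO livers, against 151, 99.5 and 107 CPM in WT livers (0.53 ± 0.18, adjusted p = 0.0718). Abcc4 was scarce, at 3.23, 2.67 and 6.67 CPM in KO livers and 1.68, 2.66 and 2.28 CPM in WT livers. KO 3 set most of its difference (0.93 ± 0.37, adjusted p = 0.115), which was 0.42 without that library. Abcc6 overlapped between the groups (0.22 ± 0.19). Slc51b, a subunit of the heterodimer OST, had 15, 15 and 22 counts in KO livers and 10, 3 and 5 counts in WT livers (1.31 ± 0.50, adjusted p = 0.0984), and 91 of its 709 exon bases are shared with Rasl12 on the other strand. Slc51a, its partner, had 0 counts in every library. For counting error only, Slc51a could still reach 0.0735 CPM in the KO libraries and 0.0916 CPM in the WT libraries, without TMM scaling. Of its 3198 exon bases 567 are shared with Pcyt1a on the other strand, which had up to 4822 counts, so the 0 also depends on how shared reads were assigned. Cholangiocytes also carry OST and Abcc3. Of their markers 3 of 7 tested rose, Krt19, Epcam and Cldn4. All 10 listed markers summed to 172 to 405 CPM in KO livers and 129 to 171 CPM in WT livers. Most of that sum was Spp1, Aqp1 and Sox9, none of which passed (adjusted p 0.0519, 0.365 and 0.367). The part of cholangiocytes in these values was not tested.

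**Figure D4:**
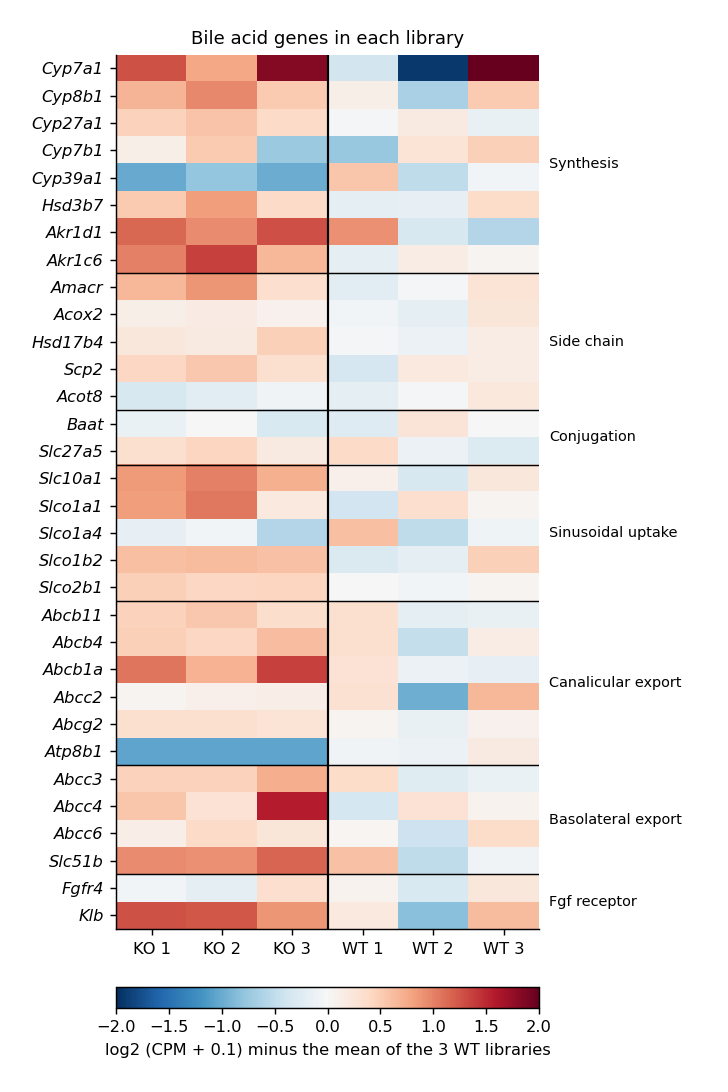
Heat map of log2(CPM + 0.1) of the 32 tested bile acid genes (rows, by role) in each library (columns, KO at the left), as the difference from the mean of the 3 WT libraries. Atp8b1 and Cyp39a1 are blue in all 3 KO columns, WT 2 is blue for Cyp7a1, Cyp8b1, Abcc2 and Klb, and 1 value lies past the colour limit of 2.

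Neither gene of the receptor that reports bile acid return from the gut passed. Klb, the coreceptor that lets Fgfr4 bind the intestinal hormone Fgf15, was at 26.6, 26.2 and 20.4 CPM in KO livers, against 12.6, 6.15 and 17.2 CPM in WT livers. The groups did not overlap, but WT 3 came near KO 3 (1.03 ± 0.34, adjusted p = 0.0704). Fgfr4 was at 34.5 ± 6.69 CPM in KO livers and 33.7 ± 6.14 CPM in WT livers (SD, n = 3 each; log2 fold change 0.03, 95% interval -0.38 to 0.45).

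Library by library, WT 2 was the lowest of the 3 WT libraries for 18 of the 32 tested genes and WT 3 the highest for 17. In KO livers KO 3 was the lowest for 18 and KO 2 the highest for 18. Measured from each gene's own mean, the median deviation of the 32 was 0.21, 0.22 and 0.14 in KO 1, KO 2 and KO 3, against -0.18, -0.36 and -0.02 in WT 1, WT 2 and WT 3. By this median over the bile acid genes, WT 3 was the WT library nearest to the KO libraries.

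Regulators and accessory genes were compared next. Of 19 regulators, 17 could be tested, and Jun and Vdr rose while Rxra, Prox1 and S1pr2 were among those that fell. Among all genes tested 9.80% rose and 10.6% fell. The bile acid receptor FXR itself (Nr1h4) was at 81.8, 85.3 and 63.9 CPM in KO livers, against 43.1, 38.8 and 115 CPM in WT livers, and WT 3 stood far above the other WT livers (0.23, adjusted p = 0.727). Its target Nr0b2, the repressor SHP, was at 14.4, 24.8 and 10.1 CPM in KO livers and 23.6, 7.0 and 18.3 CPM in WT livers (0.01, 95% interval -1.14 to 1.16). Nr5a2, the LRH-1 activator of Cyp7a1 and Cyp8b1 (-0.17 ± 0.17), and Hnf4a (-0.14 ± 0.21) did not pass. Rxra, the partner of FXR, fell to 322, 318 and 260 CPM in KO livers, against 452, 438 and 488 CPM in WT livers (-0.61 ± 0.14, adjusted p = 0.0215). Prox1, a corepressor of Cyp7a1 (-0.60 ± 0.13, adjusted p = 0.0206), and S1pr2, a receptor that answers conjugated bile acids (-1.15 ± 0.25, adjusted p = 0.0193), fell as well. Jun rose to 585, 817 and 1003 CPM in KO livers, against 101, 124 and 46.7 CPM in WT livers (3.15 ± 0.39, adjusted p = 0.00438). Vdr also passed (2.34 ± 0.59, adjusted p = 0.0286) at 23 to 81 counts in KO livers and 6 to 11 counts in WT livers. Fgf15 had 0 counts in every library.

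Of 13 accessory enzymes, all tested, 4 rose and 1 fell, against 9.80% and 10.6% of all genes tested. The oxysterol-forming hydroxylase Ch25h was at 7.66, 4.31 and 15.2 CPM in KO livers and 1.76, 1.69 and 0.389 CPM in WT livers (2.82 ± 0.63, adjusted p = 0.0234). The sulfotransferase Sult2a8 (0.95 ± 0.20, adjusted p = 0.0178), the bilirubin glucuronosyltransferase Ugt1a1 (0.66 ± 0.14, adjusted p = 0.0181) and Akr1c14 rose. Cyp3a11, a hydroxylase that clears bile acids and drugs, fell to 1991, 2021 and 1762 CPM in KO livers, against 5027, 2687 and 2885 CPM in WT livers (-0.88 ± 0.25, adjusted p = 0.0430). Cyp2c70, which makes the muricholic acids of rodents, was at 1179, 1330 and 707 CPM in KO livers and 435, 1213 and 587 CPM in WT livers and did not pass (0.53 ± 0.40). Of 17 accessory transport and trafficking genes 15 could be tested, and Tmem30a and Abcb1b, described above, were among those that did not pass.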

How the data were processed

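The authors deposited estimated counts per gene (expected counts, not whole numbers for genes that share reads) for 6 liver libraries. Per the submitters' processing notes, Trim Galore, STAR, Salmon and the GRCm38 build were used; no source used here gives their versions, settings or strandedness. Counts were rounded, filtered with filterByExpr, scaled by TMM and tested with edgeR 4.0.16 (quasi-likelihood, robust) in R 4.3.3, with Benjamini-Hochberg adjustment over all 14069 genes tested. CPM use TMM-scaled totals. TPM use union exon lengths from GENCODE (GRCm38) and serve for levels between genes and for sums over a role; no test uses them. A standard error is the fold change divided by the root of its F. Alternatives used DESeq2 1.42.0, limma 3.58.1, other scalings and filters, the replicate number as a block, and leaving out each library. On data simulated for KO against WT, 83.7% of 98 genes changed 3-fold and 10.2% of 98 changed 1.5-fold were called among 13719 genes tested, with 8 of 13523 unchanged genes called. A smaller share of genes was changed in the simulation than was called in the data (20.4%). The adjusted threshold is stricter in that setting, so these shares cannot be carried over to the data.

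The genes, lists and motifs were chosen with earlier results of these data known. Every one of the 33 genes is named, those that passed or did not overlap with values in every library; of the other lists, genes that passed and a preset few (Nr1h4, Nr0b2, Nr5a2, Hnf4a, Cyp2c70, Tmem30a). Fgf15 and Abcb1b were named after their values were seen. Some results of the other lists and of the motif search are not reported here.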

Additional observations from a re-analysis of the deposited data

How the results depend on the processing

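In KO against WT livers, 5 bile acid genes rose and 2 fell. The number that rose was 3 with library totals alone, 14 with DESeq2 and 7 with limma voom. In edgeR it was 13 at an adjusted p of 0.1 and 0 against a fold of 1.5. Without a fold minimum, 20 of 32 had an unadjusted p under 0.05 in either direction, against 5063 of 14069 genes tested. The number that fell was 1 against a fold of 1.5. Leaving out 1 library at a time gave 0 to 9 that rose and 1 to 2 that fell, with 0 that rose only without KO 1. Over all genes, 1379 rose and 1492 fell, 9.80% and 10.6% of those tested. Against a fold of 1.5 the numbers were 230 and 93, and 2249 fell at an adjusted p of 0.1. Leaving out 1 library gave 385 to 1390 higher and 218 to 1690 lower. Of the other pathway genes 7 rose and 5 fell; 1 rose and 0 fell against a fold of 1.5, 8 fell at an adjusted p of 0.1, and leaving out 1 library gave 2 to 7 higher and 1 to 7 lower. The median log2 fold change of uptake genes was 0.56, and 0.47 with library totals alone, which moved the median of all genes to -0.10; without 1 library it was 0.44 to 0.72. That of basolateral exporters was 0.43 to 0.87. The log2 ratio of summed conjugation levels, KO over WT, was -0.05 in TPM, 0.15 in TMM-scaled CPM and 0.13 in TMM-scaled CPM per kb, both added after seeing the data. The cause of these shifts was not tested.

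KO and WT samples share replicate numbers, but same-numbered libraries did not deviate together (correlations -0.076, 0.013 and -0.085), and no library correlated best with its own number. With the replicate block, 2 bile acid genes rose and 1 fell, 807 genes rose and 661 fell over the whole table, and 2 other pathway genes fell. Low counts limit Slc51a and Slc51b. Among the values of single bile acid genes under alternatives, 475 kept their direction and side of the threshold, 28 came to pass, 25 no longer passed and 15 changed sign, all 15 of genes that had not passed. Leaving out 1 library gave log2 fold changes of -0.15 to 2.32 for Cyp7a1, -0.34 to 0.24 for Cyp7b1, -0.55 to 0.030 for Slco1a4, -0.40 to 0.28 for Abcc2 and -0.13 to 0.15 for Fgfr4. Abcc2 was at 0.090 with limma voom, 0.086 with the replicate block and 0.069 with the length trend removed. Fgfr4 was at -0.018 with upper-quartile scaling and -0.043 with library totals alone.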
